A study of Homo sapiens with 6 samples.

Results

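KAT7 encodes HBO1, a histone acetyltransferase of the MYST family that acts as the catalytic subunit of small protein complexes. The 10 genes described here encode that enzyme, its BRPF scaffolds (BRPF1, BRD1 and BRPF3), its JADE scaffolds (JADE1, JADE2 and JADE3), the chromatin-reading subunits ING4 and ING5, and the shared small subunit MEAF6. They were taken by name from the list of known subunits, and their 42 RefSeq transcript rows were taken from a table of 58215 rows, which held 26989 named genes. Of the 42 rows, 37 had a mean of at least 10 normalized counts and were tested, and 2 had no read in any library.

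As background, a scaffold holds the enzyme, an ING protein and MEAF6 together and sets which histone is acetylated. BRPF scaffolds direct the enzyme mainly to histone H3, and JADE scaffolds direct it mainly to histone H4. The enzyme is also known to associate with the origin recognition complex and the licensing factor CDT1. BRPF scaffolds, ING5 and MEAF6 are shared with the related MOZ and MORF acetyltransferases (KAT6A and KAT6B), and MEAF6 is also part of the TIP60 complex.

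RNA-seq libraries came from UWB1.289, an established ovarian carcinoma cell line that lacks functional BRCA1. All cells received lentivirus with polybrene at 10 µg/mL, and puromycin was raised from 1 to 3 µg/mL starting 96 h later. The 3 shCTRL libraries carried a control hairpin and the 3 shHBO1 libraries a hairpin against HBO1. The labels do not state the number of hairpins or their sequences, so effects of a hairpin other than loss of HBO1 cannot be told apart from that loss. No label says that the numbered replicates were separate cultures, so the p-values reflect only library-to-library spread, which may be technical in origin. The libraries held 35940400 to 39908703 recovered reads. Of 8 epithelial and serous carcinoma markers all 8 had a mean of at least 10, with summed normalized counts from 345461 to 403677 in shCTRL and from 325315 to 384087 in shHBO1. The 4 leukocyte markers summed to between 27.5 and 61.7, and the fibroblast marker DCN was at 0 in all 6 libraries. The 3 endothelial markers, of which CDH5 was the highest, summed to 886 to 1306 in shCTRL and 749 to 921 in shHBO1. The 3 fibroblast markers, of which COL1A1 was the highest, summed to 502 to 843 in shCTRL and 739 to 895 in shHBO1. Their part in the results was not tested.

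KAT7 was the 1 subunit gene called as changed, and in shHBO1 it stood at 23.9% of its control mean. In order of replicate number, here and throughout, it had 3616, 3952 and 3554 normalized counts in shCTRL and 1008, 872 and 784 in shHBO1. The groups were far apart, with every shHBO1 value below every shCTRL value. KAT7 fell by 2.07 on the log2 scale (SE 0.11, 95% confidence interval −2.32 to −1.82, limma adjusted p = 0.00123). An exact two-sided permutation test of KAT7 alone returned p = 0.1, and with 3 libraries a group no smaller p is possible. In bulk RNA, less KAT7 RNA in every cell and more cells without it cannot be told apart. In the fit across 15182 genes KAT7 was the 1 gene called, so 0.00659% of all genes passed. With the replicate number as a block, 19 of all genes passed, and KAT7 was still the 1 subunit among them.

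Most KAT7 reads were assigned to 2 transcript rows that differ by a coding exon, shown here because the rows stand for different HBO1 proteins. Their matched models also differ in non-coding length, with 9644 bases in all for NM_007067 and 3469 for NM_001199155. The row counts therefore do not measure use of the exon alone. The model of the low row NM_001199156 holds the exon as well. In GENCODE release 29 the model matched to NM_007067 holds this 90-base exon as exon 6 of 15, at chr17:49809119-49809208 on the plus strand of GRCh38. The model matched to NM_001199155 joins its neighbours directly. The exon is given in capitals between 15 flanking bases on each side.
NM_007067: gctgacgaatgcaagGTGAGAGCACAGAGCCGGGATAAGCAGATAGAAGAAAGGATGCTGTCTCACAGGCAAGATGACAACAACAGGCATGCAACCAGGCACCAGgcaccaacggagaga
NM_001199155: gctgacgaatgcaaggcaccaacggagaga

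The exon-containing NM_007067 had 2142, 2476 and 2609 normalized counts in shCTRL and 640, 637 and 663 in shHBO1. The shHBO1 values were nearly equal and lay at 26.8% of the shCTRL mean. NM_007067 fell by 1.89 on the log2 scale (SE 0.11, limma adjusted p = 0.0377 over 33630 transcript rows, of which 0.00297% passed). Leaving out any 1 of the 6 libraries ended that call (limma adjusted p from 0.141 to 0.638), while the log2 fold change stayed between −1.97 and −1.83. The call also ended with the replicate number as a block (limma adjusted p = 0.631) and with precision weights (limma adjusted p = 0.0766), both with a log2 fold change of −1.89.

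The row without the exon, NM_001199155, had 1338, 1236 and 940 normalized counts in shCTRL and 207, 228 and 71.4 in shHBO1. The groups did not overlap, and the shHBO1 mean was 14.4% of the shCTRL mean. NM_001199155 had a log2 fold change of −2.94 (SE 0.45, 95% confidence interval −4.01 to −1.86) and did not pass over all transcript rows (limma adjusted p = 1.00). As a share of KAT7 counts it made up 37.0%, 31.3% and 26.4% in shCTRL and 20.6%, 26.2% and 9.11% in shHBO1. These shares make no allowance for model length, which is 3469 bases for NM_001199155 and 9644 for NM_007067. They are therefore not shares of transcript molecules. The lowest shCTRL share and the highest shHBO1 share were almost equal. The means were 31.6% ± 5.28 and 18.6% ± 8.69 (SD, n = 3), and the exact two-sided permutation test, applied after the values were seen, gave p = 0.1, the smallest possible. A limma diffSplice test of unequal change among the 5 tested KAT7 rows did not pass (adjusted p = 0.954). It takes in the low rows NM_001199156, NM_001199157 and NM_001346706, whose log2 fold changes had SEs of 2.34, 1.58 and 2.10. The test therefore does not compare the large rows alone.

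The other 4 KAT7 rows were low and erratic. NM_001199156 had 16.3, 239 and 0 normalized counts in shCTRL and 70.1, 0 and 4.82 in shHBO1. A single shCTRL library held most of that row's reads. NM_001199157, NM_001199158 and NM_001346706 each stayed at or below 75.2 normalized counts in every library.

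**Figure D1:**
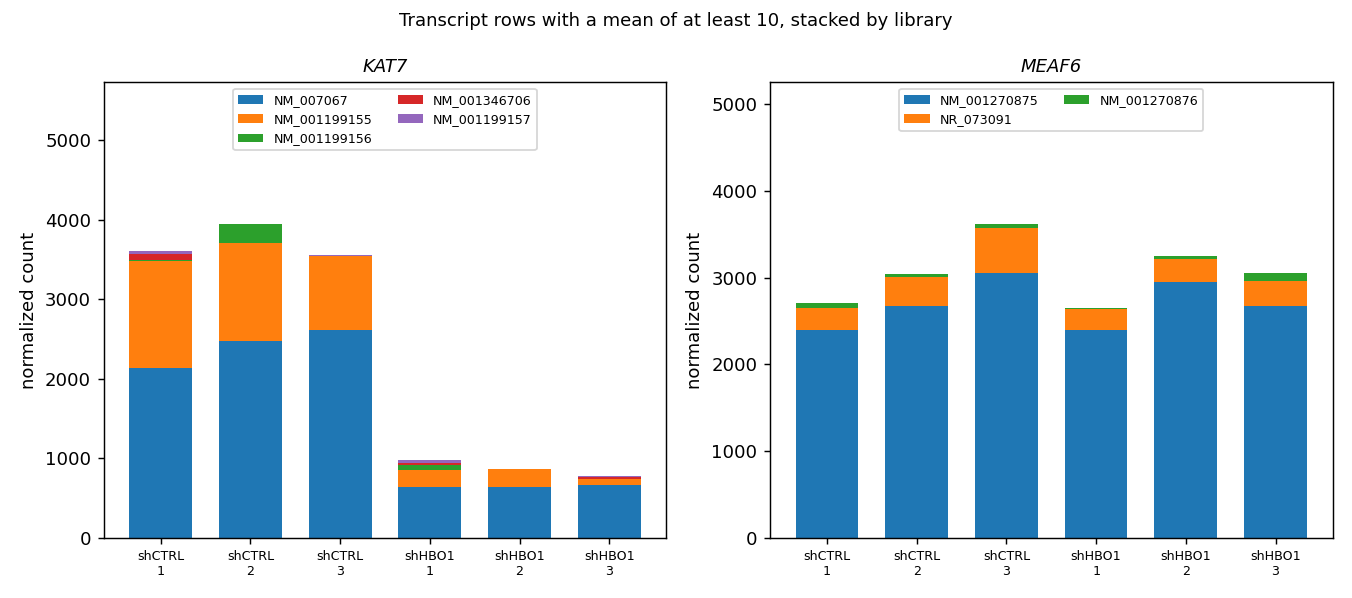
Stacked normalized counts of the tested transcript rows of KAT7 and MEAF6 in each library (y axis, linear; rows with a mean under 10 are left out). In KAT7 both large rows were lower in the 3 shHBO1 libraries, while NM_001270875 dominated MEAF6 in all 6 libraries.

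The BRPF scaffolds carry PHD fingers, a bromodomain and a PWWP domain that bind chromatin. BRPF3 had 1021, 1188 and 1485 normalized counts in shCTRL and 1317, 1487 and 1482 in shHBO1. The groups overlapped, since shCTRL replicate 3 was as high as 2 of the shHBO1 libraries. BRPF3 had a log2 fold change of 0.23 (SE 0.14, 95% confidence interval −0.097 to 0.56) and did not pass (limma adjusted p = 1.00). The estimate was 0.10 without shCTRL replicate 1 and 0.37 without shCTRL replicate 3. With the replicate block BRPF3 was the 1 of the 9 subunits other than KAT7 with an unadjusted p under 0.05, as were 11.3% of all genes, and it did not pass (limma adjusted p = 0.391).

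BRD1 had 894, 937 and 930 normalized counts in shCTRL and 1016, 949 and 975 in shHBO1. Every shHBO1 value was above every shCTRL value, although the closest values differed by little. BRD1 had a log2 fold change of 0.090 (SE 0.083, 95% confidence interval −0.10 to 0.28). Besides KAT7 it was the 1 subunit gene whose groups did not overlap, beside 8.93% of all genes, or 4.49% with shHBO1 higher. Its row NM_001304808 had 409, 506 and 459 in shCTRL and 518, 542 and 635 in shHBO1. The other row, NM_001304809, had 484, 431 and 471 in shCTRL and 498, 407 and 340 in shHBO1. The estimates of the rows pointed in opposite directions, and a difference in isoform usage did not pass (diffSplice adjusted p = 0.720).

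BRPF1 had 712, 880 and 960 normalized counts in shCTRL and 901, 884 and 927 in shHBO1. The shHBO1 values lay within the shCTRL range, with a log2 fold change of 0.098 (SE 0.12). Its 4 rows traded reads between libraries, and their sum, from 712 to 960 in shCTRL, varied less than the row NM_004634. NM_004634 had 5.08, 84.3 and 402 in shCTRL and 191, 163 and 81.1 in shHBO1. Within shCTRL this row therefore took 0.713%, 9.57% and 41.9% of BRPF1. The row NM_001319050 had 298, 376 and 192 in shCTRL and 369, 451 and 398 in shHBO1, which also overlapped.

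The JADE scaffolds carry PHD fingers and connect the enzyme to histone H4. JADE2 had 1495, 1677 and 1642 normalized counts in shCTRL and 1670, 1724 and 1693 in shHBO1. The groups overlapped, and the log2 fold change was 0.081 (SE 0.079). The 2 rows whose matched model holds a 129-base coding exon, exon 11 of 12, that the model of NM_001289984 skips made up 68.6% ± 5.12 of JADE2 in shCTRL and 68.5% ± 7.66 in shHBO1 (SD, n = 3). These shares differed by less than the spread between replicates.

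JADE1 had 1024, 994 and 804 normalized counts in shCTRL and 894, 1035 and 804 in shHBO1, and replicate 3 was the lowest library of each group. The log2 fold change was −0.046 (SE 0.14). The gene is known for a long and a short protein, of which the short one lacks the C-terminal part. The 2 rows matched to short coding models made up 14.3%, 21.5% and 26.7% of JADE1 in shCTRL and 13.4%, 16.4% and 19.7% in shHBO1. The short form was the minor one in every library, and the groups overlapped, although its share was lower in shHBO1 within each of the 3 numbered pairs. At the level of gene sums, 32.4% of all genes moved the same way in every numbered pair, and no label says that the numbers mark pairs. Isoform usage over the 8 JADE1 rows did not pass with the block (diffSplice adjusted p = 0.973). That test does not set the short rows against the long ones, and the share of the short form was not tested.

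JADE3 had 416, 410 and 472 normalized counts in shCTRL and 429, 415 and 427 in shHBO1. JADE3 varied little between libraries, with a log2 fold change of −0.027 (SE 0.11). Its rows NM_001077445 and NM_014735 are matched to models with the same coding length of 2469 bases. NM_014735 ranged from 39.9 to 179 normalized counts in shCTRL and from 101 to 188 in shHBO1, and isoform usage did not pass (diffSplice adjusted p = 0.852).

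**Figure D2:**
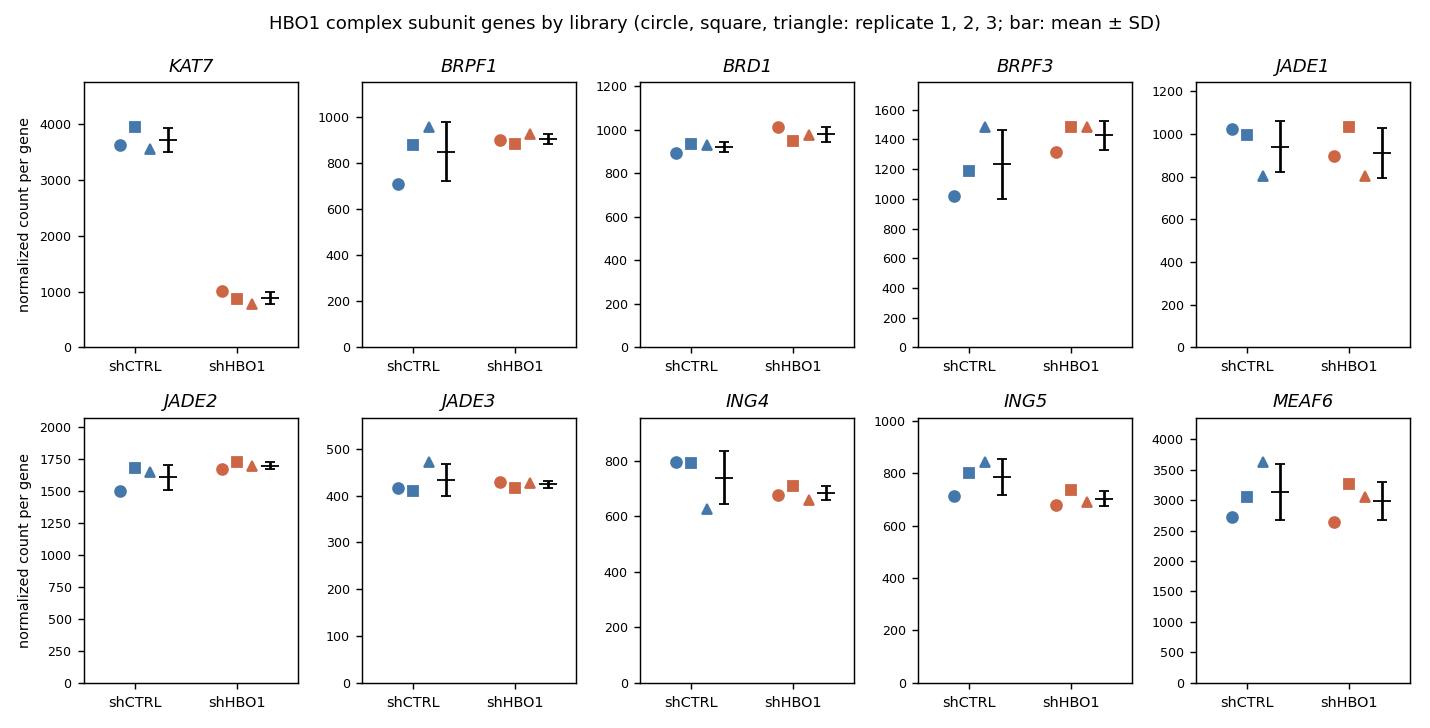
Normalized counts per gene (y axes, linear from 0) for the 10 subunit genes in each of 6 libraries. Symbols mark replicates 1, 2 and 3, and black bars give the mean ± SD of each group. KAT7 stands apart between the groups, and in the other panels the groups overlap except for BRD1, where they lie close together.

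ING4 and ING5 carry a PHD finger that reads trimethylated histone H3. ING5 had 712, 803 and 843 normalized counts in shCTRL and 680, 735 and 692 in shHBO1. The groups overlapped through shCTRL replicate 1, and ING5 had a log2 fold change of −0.16 (SE 0.10, 95% confidence interval −0.40 to 0.079). The larger row, NM_001330161, had 453, 502 and 486 in shCTRL and 378, 416 and 372 in shHBO1. Those values did not overlap, as in 4 of the 37 tested subunit rows and in 9.09% of all transcript rows. Its log2 fold change of −0.31 (SE 0.15) did not pass (limma adjusted p = 1.00). The second row, NM_032329, averaged 292 ± 53.5 in shCTRL and 299 ± 18.2 in shHBO1 (SD, n = 3). Isoform usage of ING5 did not pass (diffSplice adjusted p = 1.00).

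ING4 had 795, 792 and 627 normalized counts in shCTRL and 677, 710 and 659 in shHBO1, with a log2 fold change of −0.11 (SE 0.12). The groups overlapped, because shCTRL replicate 3 was below all shHBO1 libraries. Of its 6 rows, 4 are matched to coding models that differ at 1 splice junction, and they are shown to make plain how few bases separate them. Capitals mark bases that the shortest of these, NM_001127584, lacks, placed as far 3′ as the sequence allows.
NM_001127582: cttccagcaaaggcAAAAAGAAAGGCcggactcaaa
NM_016162: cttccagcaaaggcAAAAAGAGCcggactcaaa
NM_001127583: cttccagcaaagAAGgccggactcaaa
NM_001127584: cttccagcaaaggccggactcaaa

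The coding models therefore have 12, 9 and 3 bases more than that of NM_001127584. NM_016162 had 448, 350 and 230 normalized counts in shCTRL and 282, 347 and 371 in shHBO1. NM_001127582 had 87.3, 258 and 215 in shCTRL and 318, 185 and 174 in shHBO1. Replicate 1 of shCTRL had the highest value of the first row and the lowest of the second, and in both rows the groups overlapped. NM_001127583 had 64.0, 23.4 and 35.7 in shCTRL and 5.61, 1.02 and 28.0 in shHBO1. That last row also overlapped, and its log2 fold change of −2.41 (SE 1.08) did not pass (limma adjusted p = 1.00).

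**Figure D3:**
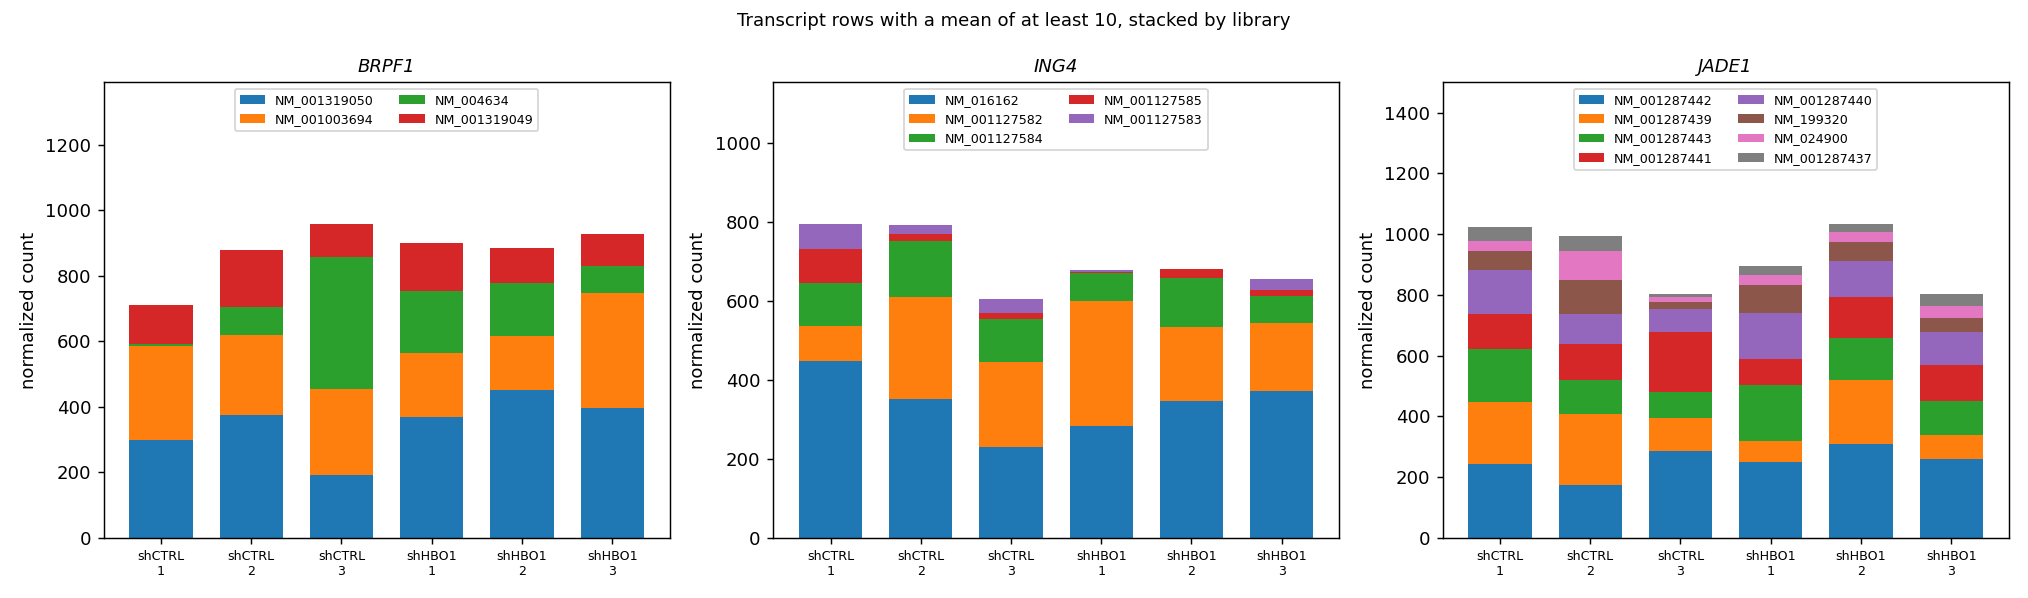
Stacked normalized counts of the tested transcript rows of BRPF1, ING4 and JADE1 in each library (y axes, linear; rows with a mean under 10 are left out). The height of the stacks varied less than their make-up, as in BRPF1, where NM_004634 ran from 5.08 to 402 within shCTRL.

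MEAF6 had 2725, 3049 and 3627 normalized counts in shCTRL and 2649, 3261 and 3053 in shHBO1. The groups overlapped, with a log2 fold change of −0.064 (SE 0.12, 95% confidence interval −0.35 to 0.22). Most reads went to NM_001270875, which made up 86.5% ± 2.14 of MEAF6 in shCTRL and 89.5% ± 1.69 in shHBO1 (SD, n = 3). The row NM_022756 had 0 reads in every library. Its matched model differs by a 30-base coding exon, exon 6 of 8, at chr1:37496707-37496736 on the minus strand of GRCh38, shown because this row carries no reads. Of the other 5 MEAF6 rows, NR_073092 (0 reads) and NR_073090 (45 reads over all libraries) have matched models with the exon. Both are non-coding RefSeq entries, yet NR_073092 is matched to a coding model, so that match is uncertain. NR_073092 is matched to a model with the same length (2147 bases) and coding length (603 bases) as that of NM_022756. These lengths therefore do not tell NR_073092 and NM_022756 apart. The exon is in capitals between 15 bases of its neighbours.
NM_022756: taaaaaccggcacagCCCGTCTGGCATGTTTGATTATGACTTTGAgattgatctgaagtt
NM_001270875: taaaaaccggcacaggattgatctgaagtt

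Against 18599 MEAF6 reads over the 6 libraries, 0 reads put the share of counts assigned to NM_022756 at up to 0.0161%. This limit covers counting error only, and how the authors divided reads among transcripts is not stated in the labels. Reads that fit both NM_022756 and NR_073092 may have been left out, so the limit does not bound the transcript itself. The non-coding row NR_073091 had 254, 338 and 525 normalized counts in shCTRL and 236, 266 and 286 in shHBO1. It overlapped between groups, and its log2 fold change was −0.44 (SE 0.29).

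As a whole, the 9 subunits other than KAT7 had 4 estimates above 0 and 5 below 0. Their median log2 fold change was −0.027, beside 0.00018 over all 15182 genes. The median size of the estimates was 0.090 in the 9 genes and 0.093 in all genes. The 95% confidence intervals of the 9 genes ran from −0.40 at the lowest (ING5) to 0.56 at the highest (BRPF3), and each gene's own interval bounds the change its 3 libraries a group leave possible. Without the block 0 of the 9 genes passed in limma, and 0 had an unadjusted p under 0.05, where 3.54% of all genes did. edgeR and DESeq2 called 0 of the 9 as well.

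**Figure D4:**
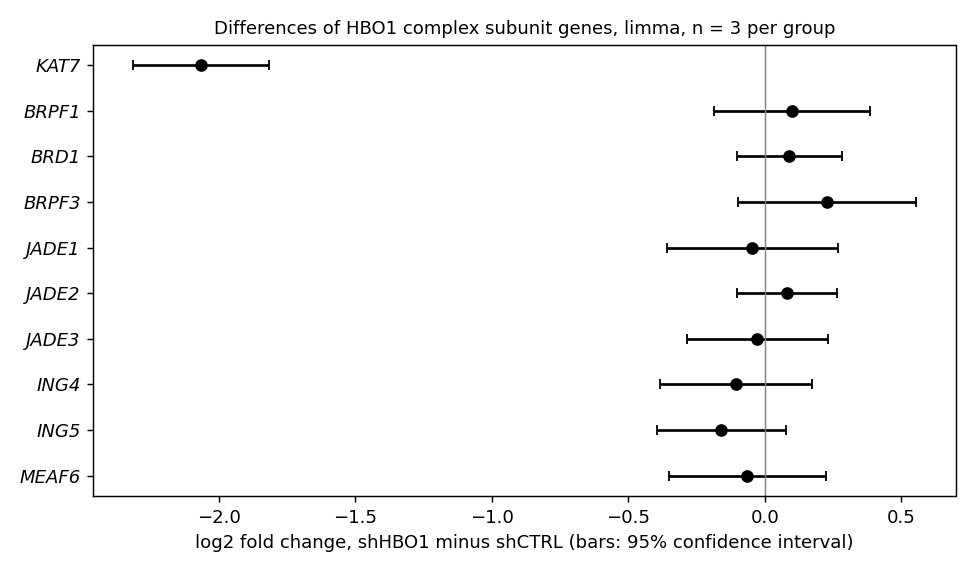
Log2 fold change of each subunit gene, shHBO1 minus shCTRL (x axis), with its 95% confidence interval from limma (n = 3 per group). The KAT7 interval lies at −2.32 to −1.82, and the intervals of the other 9 genes include 0.

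Levels of different genes were compared per kilobase of the matched GENCODE transcript models. In shCTRL, MEAF6 was highest at 2121 ± 305 normalized counts per kb. KAT7 (645 ± 102), ING4 (551 ± 72.0) and JADE2 (536 ± 39.4) followed, and their library values overlapped. Next came JADE1 (227 ± 34.4), BRPF3 (204 ± 38.8), BRPF1 (186 ± 30.4) and ING5 (185 ± 12.9), which also overlapped, and then JADE3 (90.9 ± 7.69). BRD1 was left out of this order because 46.2% of its counts had a matched model. In shHBO1, KAT7 was at 147 ± 51.9 normalized counts per kb, below the lowest library of JADE2 and ING4. The places of JADE2 and ING4 depend on the matched models as well. These models ran from 2748 to 6465 bases in JADE2 and from 602 to 1709 bases in ING4, and other lengths were not tried for these genes. The place of KAT7 depends on its length, since the model matched to NM_007067 has 9644 bases. With the 3469 bases of the NM_001199155 model for both, KAT7 was at 1089 ± 100.1 in shCTRL and 266 ± 50.1 in shHBO1, still below MEAF6 (all SD, n = 3).

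Transcript rows of the subunits varied more between replicates than gene sums did. The coefficient of variation between replicates, averaged over the groups, ran from 2.97% (BRD1) to 12.9% (BRPF3) for the 10 gene sums, with a median of 8.52%. For the 37 tested rows it ran from 5.74% to 157%, with a median of 26.1%. Among the 36 rows of the 9 genes with several tested rows, 33 varied more than their gene sum. The exceptions were NM_007067 of KAT7, NM_001330161 of ING5 and NM_001270875 of MEAF6, each the largest row of its gene. The medians over all tested features were 11.1% for genes and 27.5% for rows. Of the 9 genes with several tested rows, 0 passed for changed isoform usage with diffSplice, beside 0.141% of 7805 genes, and 0 had an unadjusted p under 0.05, beside 7.52%.

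**Figure D5:**
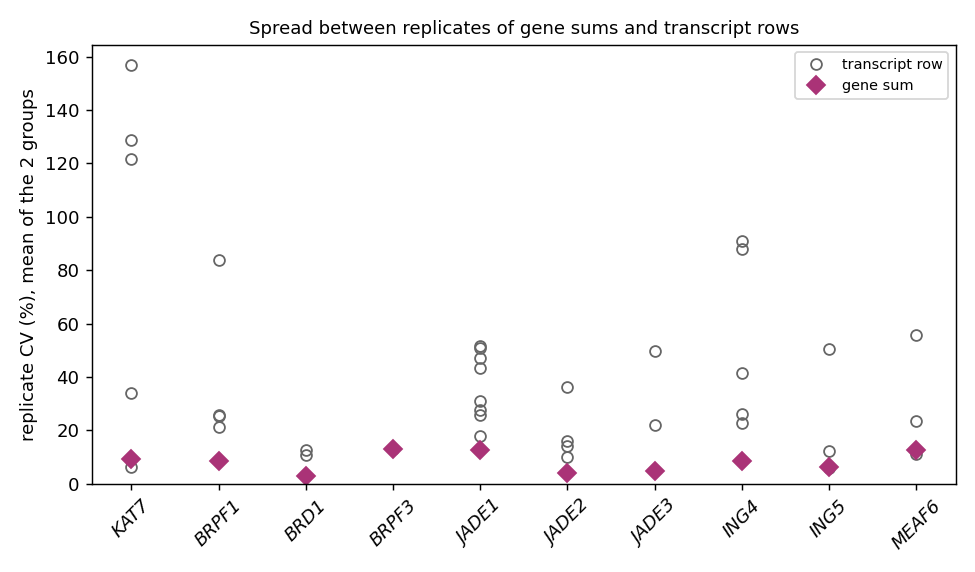
Coefficient of variation between replicates in percent, averaged over shCTRL and shHBO1 (y axis), for the gene sum (diamond) and each tested transcript row (open circle) of every subunit gene. Gene sums lie between 2.97% and 12.9%, and rows reach 157%.

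Replicate numbers shared part of the spread. Values of MEAF6 and BRPF3 were lowest in replicate 1 of both groups, and JADE1 was lowest in replicate 3 of both. Their log2 differences between numbers 3 and 1 were 0.31 for MEAF6, 0.36 for BRPF3 and −0.25 for JADE1. These 3 of the 10 genes had an unadjusted p under 0.05 in the limma F-test of replicate number, a share close to the 30.1% of all genes that did. After adjustment 0 of the 10 passed in limma or edgeR, beside 9.69% of all genes in limma. KAT7 did not pass either (limma adjusted p = 0.359). Within the numbered pairs, KAT7 in shHBO1 was at 27.9%, 22.1% and 22.0% of its control, and ING5 at 95.5%, 91.6% and 82.1%. KAT7, BRD1, JADE2 and ING5, 4 of the 10 genes, moved the same way in all 3 pairs, as did 32.4% of all genes.

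Genes tied to the subunits by known function were examined from 5 lists. Of the 44 tested genes 0 passed in limma in either direction, with or without the block. Over all genes 0.00659% passed without it and 0.125% with it. Without the block 0 of the 44 had an unadjusted p under 0.05, beside 3.54% of all genes. The MYST acetyltransferases related to HBO1 (KAT5, KAT6A, KAT6B and KAT8) had a median log2 fold change of 0.029. KAT8, the catalytic subunit of the MSL and NSL complexes, had 1493 ± 66.4 normalized counts in shCTRL and 1303 ± 106 in shHBO1 (SD, n = 3). Its groups did not overlap, as was so for 8.93% of all genes. Its log2 fold change was −0.20 (SE 0.092, limma adjusted p = 1.00), and that of KAT6B was 0.16 (SE 0.12). The other ING genes had a median of 0.028, with ING3 at 0.11 and ING2 at 0.028.

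The 15 other TIP60 complex subunits had a median of 0.031, with 10 estimates above 0, beside 7598 of all 15182 genes. TRRAP, its large scaffold, had 0.18 (SE 0.095), and EPC1, which holds the TIP60 enzyme, had 0.17 (SE 0.11). The 15 origin licensing genes had a median of −0.046, with 12 estimates below 0. All of these estimates were small, genes of a complex are not independent of each other, and such counts of directions are descriptions with no test. CDT1, which loads the MCM helicase, averaged 5005 ± 11.6 normalized counts in shCTRL and 4701 ± 263 in shHBO1 (SD, n = 3). Its log2 fold change was −0.092 (SE 0.068), and the groups overlapped, since shHBO1 replicate 3 (5001.5) lay within the shCTRL range. MCM5, a helicase subunit, had −0.053 (SE 0.065). The 7 menin, MLL and kinase partners had a median of 0.053, with the methyltransferase KMT2A at 0.26 (SE 0.12) and the chromatin tether PSIP1 at −0.15 (SE 0.14).

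The genes whose levels followed KAT7 most closely over the 6 libraries were C3, OGG1, PRR3, SVBP and MXRA8, ranked by Pearson's r among 12218 genes with a mean of at least 100. Their r ran from 0.979 (MXRA8) to 0.989 (C3). The measure favours any gene that is steady within each group, because KAT7 differs mainly between the groups. OGG1, a base excision repair enzyme, had 411, 414 and 409 normalized counts in shCTRL and 383, 373 and 378 in shHBO1, a log2 difference of −0.12. MXRA8 had 419, 427 and 453 in shCTRL and 284, 277 and 292 in shHBO1, a log2 difference of −0.60. The values of OGG1 were close together within each group and separated by a small step, and those of MXRA8 by a larger one. These 5 genes were selected for that pattern, so it is a description with no test.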

How the data were processed

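The authors deposited 1 table of normalized signal per RefSeq transcript accession, with 1 column per library, and the submitters' processing notes name Bowtie 1.2.1.1, SAMtools, DESeq2 and hg19 without roles. Each value was a whole read count times 1 factor per library: dividing by it gave whole reads for 100% of values at a tolerance of 0.01 read. Names came from RefSeq (GRCh38.p14) for 57191 accessions and GENCODE release 29 for 646, and 378 had none. Rows were summed per gene, so a read counted for several transcripts would enter more than once, and reads shared with near-identical, overlapping or antisense genes could not be separated. Models of the 40 matched subunit rows, their lengths and the printed sequences came from GENCODE on GRCh38, and may differ from the transcripts the authors counted.

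limma-trend (limma 3.58.1, R 4.3.3) was run on log2(value + 1), two-sided, for features averaging 10 or more, and p-values were adjusted over all of them by Benjamini and Hochberg's method (threshold 0.05). The pseudocount understates changes of low features. Isoform usage was tested with diffSplice. edgeR 4.0.16 and DESeq2 1.42.0 were run on the recovered reads as alternatives, beside other pseudocounts, filters and scalings, a replicate block and left-out libraries. Functions were tested on simulated data. Deviations of same-numbered libraries correlated at 0.32, 0.20 and 0.48 across genes, so the numbers may mark pairs, but no label ties them to a day or batch, and shCTRL 2 correlated as well with shHBO1 1 (0.20). The main fits and permutation tests are unpaired, and the block is the alternative. The named items are the 10 genes, their tested rows, the 2 genes of each related list with the smallest p, and the 5 genes most correlated with KAT7. Beyond this rule, the printed exons and junctions, the share test, the spread comparison, the JADE1 split and the second KAT7 length were chosen after values were seen. Members and lists were chosen with earlier results of these data known. Intervals and limits cover counting or library spread only.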

Additional observations from a re-analysis of the deposited data

How the results depend on the processing

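KAT7 passed in all 18 alternatives, with log2 fold changes from −2.16 to −1.98 and adjusted p-values up to 0.0308, and its lowest and highest values were those with 1 library left out. The count of subunit genes called stayed at 1 in all 18, with the replicate block, other scalings, pseudocounts, filters, edgeR and DESeq2, and was 1 to 1 with libraries left out. Over all genes, 1 passed in the limma fit, 19 with the replicate block, 19 in edgeR with the replicate block, 19 in DESeq2 and 147 in DESeq2 with the replicate block, and 1 to 1 with libraries left out. The count of subunit transcript rows went from 1 to 0 with the replicate block, to 0 with precision weights (added after seeing the data) and to 0 with each library left out. For these counts the cause was not tested. Isoform usage stayed at 0 subunits in its 11 alternatives, and the test of replicate numbers at 0 in its 5. With 1 library or 1 pair left out the estimates of BRPF1, JADE1, JADE3 and MEAF6 changed sign, none of them past the threshold. Every library held at least 408 reads of JADE3 and at least 598 of each other subunit gene, whereas low transcript rows rest on few or 0 reads.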
